A study of Mus musculus with 40 samples.

Results

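The genes described here are the insulin-like growth factor (IGF) axis of the mouse liver and the family of IGF binding proteins. They are the hormone gene Igf1, its carrier partner Igfals, the growth hormone receptor gene Ghr and the binding protein genes Igfbp1 to Igfbp7. They were chosen by name, with earlier results of these data known. All 10 were found among the 21500 protein-coding genes of the count table by their Ensembl identifiers. The livers came from 20 male C57BL/6J mice aged 20 weeks, and their RNA was sequenced. The BLT1i mice (n = 10, numbered 71 to 80) ate the diet CDAA-HFD for 4 weeks and then for 8 weeks the same diet with BLT1i, a compound given at 90 mg/kg. The CDAA-HFD mice (n = 10, numbered 31 to 40) ate the diet alone throughout. CDAA-HFD is choline-deficient and made from amino acids, draws 60% of its energy from fat and holds 0.1% methionine, and both groups started it at 8 weeks of age. It is used to produce steatohepatitis with fibrosis. Both groups therefore ate the diet used to produce this disease. Disease in these mice was not assessed here, and no comparison with a control diet was made. The labels state neither the feeding state nor the hour at which livers were taken.

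The liver is the main source of circulating IGF-I. Growth hormone binds its receptor on hepatocytes, and signalling through JAK2 and STAT5B switches on Igf1 and Igfals. In blood, most IGF-I sits in a complex with IGFBP3 and the acid-labile subunit that Igfals encodes, which lengthens its life in the circulation. IGFBP1 and IGFBP2 form smaller complexes that can leave the vessels. IGFBP1 is the acutely regulated member of the family: insulin represses its gene in hepatocytes by keeping FOXO1 out of the nucleus, and fasting, glucocorticoids and cell stress raise it. Hepatic IGFBP2 is also raised by fasting. IGFBP3, IGFBP5 and IGFBP6 come largely from non-parenchymal and mesenchymal cells in the liver, IGFBP4 from several cell types, and IGFBP7, which binds IGF weakly, from vessels and stromal cells.

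Of the 10 genes, the binding protein genes Igfbp1 and Igfbp2 rose with BLT1i, none fell, and 8 did not pass the test (edgeR's quasi-likelihood test, with p adjusted by Benjamini-Hochberg over all tested genes and a threshold of 0.05). All 10 were tested, among 13993 genes. Of all tested genes, 5.63% passed, 3.65% as higher and 1.98% as lower with BLT1i. The median log2 fold change of the 10 genes was 0.02, beside -0.01 for all tested genes. The genes that rose are not neighbours. In RefSeq, Igfbp1 stands next to Igfbp3 on chromosome 11, and Igfbp2 next to Igfbp5 on chromosome 1, each pair pointing toward each other, and neither Igfbp3 nor Igfbp5 passed.

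The sequences before the start sites of the pair that rose are shown because Igfbp1 is the textbook target of insulin and FOXO1. Both are the 250 bases before the RefSeq start, 5′ to 3′ on the plus strand, from GRCm38.p6, whereas the submitters' processing notes name GRCm39 for the counts. Igfbp1 lies at chr11:7197537-7197786 and the first of the Igfbp2 starts at chr1:72824230-72824479. Capitals mark CAAAACA and, on the other strand, CAAAATAA, the paired parts of the insulin response element.
Igfbp1: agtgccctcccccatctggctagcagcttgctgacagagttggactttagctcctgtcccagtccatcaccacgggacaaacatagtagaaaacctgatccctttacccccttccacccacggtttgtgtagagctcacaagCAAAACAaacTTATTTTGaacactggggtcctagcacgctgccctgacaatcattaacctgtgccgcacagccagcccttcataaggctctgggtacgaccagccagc
Igfbp2: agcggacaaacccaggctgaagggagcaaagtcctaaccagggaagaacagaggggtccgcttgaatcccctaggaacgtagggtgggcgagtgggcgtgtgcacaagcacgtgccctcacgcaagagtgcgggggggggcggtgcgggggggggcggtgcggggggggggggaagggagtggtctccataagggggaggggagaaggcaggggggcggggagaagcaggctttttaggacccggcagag
CAAAACA begins 108 bases before the Igfbp1 start and the other part begins 98 bases before it. The letters of the other part were added to the search after the Igfbp1 sequence had been read. In all 32851 promoter windows of this length, 5.56% held CAAAACA on either strand and 1.49% held CAAAATAA. Among the 14 start windows of the 10 genes, Igfbp1 alone held either of them. Neither Igfbp2 window held CAAAACA, CAAAATAA, the forkhead letters GTAAACA (3.17% of windows), the STAT5 letters TTCNNNGAA (7.02%) or TATAAA (12.4%). The STAT5 letters were found before Igfals, in 2 of its 3 windows, and in no window of Igf1 or Ghr. These are matches of letters and say nothing of binding in these livers.

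Igfbp2 had the firmest difference. Its level, in CPM (counts scaled to library size, here corrected by TMM), was 837 at the lowest, 1001 at the median and 1230 at the highest in BLT1i mice, against 433, 529 and 735 CPM in CDAA-HFD mice. The lowest BLT1i mouse lay above the highest CDAA-HFD mouse, so the groups did not overlap. What share of all tested genes separates in this way was not counted, here or for Igfbp1. The mean was 1024 ± 130 CPM with BLT1i and 564 ± 114 CPM without (SD, n = 10 each). This was a 1.82-fold rise (log2 fold change 0.86 ± 0.10, SE; 95% confidence interval 0.65 to 1.07; edgeR adjusted p = 9.78e-06), and by p value Igfbp2 ranked 24 among the 13993 tested genes. Leaving out each mouse in turn gave log2 fold changes from 0.83 to 0.91, all past the threshold.

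Igfbp1 rose by about as much with far more scatter. It had 297 CPM at the lowest, 347 at the median and 681 at the highest in BLT1i mice, against 52.1, 211 and 282 CPM in CDAA-HFD mice. Again no BLT1i mouse fell within the CDAA-HFD range, although the gap between the groups was narrow, from 282 to 297 CPM. The CDAA-HFD range was wide because mice 33, 31 and 36 had only 52.1, 87.0 and 132 CPM. The mean was 378 ± 115 CPM with BLT1i and 193 ± 81.2 CPM without (SD, n = 10 each), a 1.96-fold rise (log2 fold change 0.97 ± 0.26, SE; 95% confidence interval 0.43 to 1.51; edgeR adjusted p = 0.0319). The call was lost without BLT1i mouse 72, the highest of all (0.84, adjusted p = 0.0580), and without BLT1i mouse 79 (0.95, adjusted p = 0.0592). Igfbp1 was among the most variable genes of these livers: its biological coefficient of variation within groups was 0.393, above that of 99.2% of tested genes, where the median gene had 0.086.

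**Figure D1:**
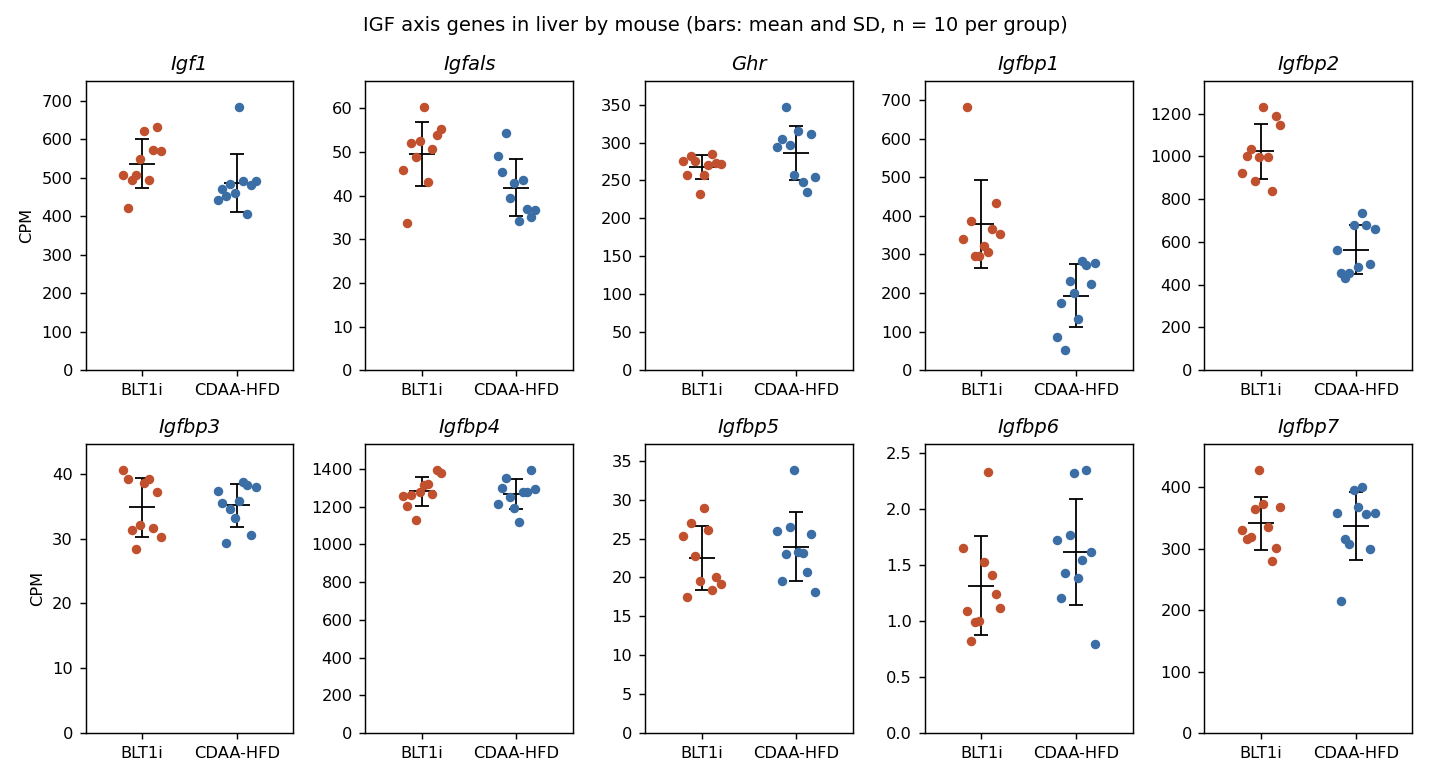
CPM of each of the 10 genes by mouse, BLT1i (red) left of CDAA-HFD (blue), with the mean and SD of 10 mice per group as black bars. Of these panels, only those of Igfbp1 and Igfbp2 show groups that separate without overlap. The share of all tested genes that do so was not counted. Single high points include BLT1i mouse 72 for Igfbp1 (681 CPM), CDAA-HFD mouse 36 for Igf1 (683 CPM) and CDAA-HFD mouse 35 for Igfbp5 (33.8 CPM).

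The immediate early genes moved with both results. This list of fast-responding transcription factors and feedback genes, among them Egr1, Fos and Jun, had a mean log2 CPM of 5.77 to 6.48 in BLT1i mice and 5.09 to 5.91 in CDAA-HFD mice, so the score nearly separates the groups by itself. With the score as a covariate the log2 fold change of Igfbp2 was 0.50 ± 0.15 (SE; 95% confidence interval 0.18 to 0.82; edgeR adjusted p = 0.163). That of Igfbp1 was 0.26 ± 0.43 (95% confidence interval -0.63 to 1.16; adjusted p = 0.874). Neither passed then, and the SE of Igfbp1 was 0.26 without the covariate. Most other calls were lost as well. Among all 13993 tested genes, 74 were called higher and 17 lower with this covariate, against 511 and 277 without it. What part the immediate early response has in the rise of Igfbp1 and Igfbp2 was not tested, and since its score follows the groups it cannot be told apart from treatment here.

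Igf1, the hormone gene, had 422 CPM at the lowest, 527 at the median and 633 at the highest in BLT1i mice, against 406, 477 and 683 CPM in CDAA-HFD mice. The groups overlapped, although 9 of 10 BLT1i mice lay above the CDAA-HFD median. The log2 fold change was 0.14 ± 0.08 (SE; 95% confidence interval -0.02 to 0.30; edgeR adjusted p = 0.328). Without CDAA-HFD mouse 36, which held the highest Igf1 of all 20, the difference was 0.21 and passed (edgeR adjusted p = 0.0413). That was the only 1 of the 20 fits with a mouse left out in which it passed. Under the 12 other settings it passed in 0.

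Igfals, which encodes the acid-labile subunit, had 33.9, 51.4 and 60.3 CPM at the lowest, median and highest in BLT1i mice, against 34.3, 41.3 and 54.3 CPM in CDAA-HFD mice. Here too 9 of 10 BLT1i mice lay above the CDAA-HFD median while the ranges overlapped. The log2 fold change was 0.25 ± 0.09 (SE; 95% confidence interval 0.06 to 0.44), with an edgeR adjusted p of 0.121. Without BLT1i mouse 72, the lowest of all mice for Igfals and the highest for Igfbp1, it was 0.30 and passed (adjusted p = 0.0279).

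Ghr, the growth hormone receptor gene, leaned the other way. It had 232, 272 and 285 CPM at the lowest, median and highest in BLT1i mice, against 235, 295 and 346 CPM in CDAA-HFD mice. All 10 BLT1i mice lay below the CDAA-HFD median, yet 4 of the 10 CDAA-HFD mice were as low or lower than the BLT1i mice's median. The log2 fold change was -0.10 ± 0.06 (SE; 95% confidence interval -0.22 to 0.03; edgeR adjusted p = 0.406), a difference within the spread. With the immediate early score as a covariate it was 0.17 (edgeR adjusted p = 0.434), so its sign turned under that setting.

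The other binding protein genes differed little. Igfbp4, an inhibitory binding protein that the protease PAPP-A cleaves, was the steadiest of the 10 genes, with 1281 ± 78.6 CPM in BLT1i mice and 1268 ± 78.2 CPM in CDAA-HFD mice (SD, n = 10 each). Its 95% confidence interval, -0.08 to 0.11 on the log2 scale, was the narrowest of the 10. Igfbp3, the main carrier in blood, had 34.9 ± 4.53 CPM with BLT1i and 35.1 ± 3.27 CPM without (95% confidence interval -0.15 to 0.13). Igfbp7 had 342 ± 42.9 CPM with BLT1i and 338 ± 55.3 CPM without (95% confidence interval -0.17 to 0.21). For these 3 genes the intervals leave room only for differences well under those of Igfbp1 and Igfbp2. In bulk liver, fewer cells of a type and less RNA per cell cannot be told apart, which matters most for genes of rarer cells.

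Igfbp5, a binding protein that attaches to extracellular matrix, had 22.5 ± 4.12 CPM in BLT1i mice and 24.0 ± 4.43 CPM in CDAA-HFD mice (log2 fold change -0.09 ± 0.11, SE). Igfbp6, which prefers IGF-II, was the rarest, with 1.32 ± 0.440 CPM in BLT1i mice and 1.61 ± 0.473 CPM in CDAA-HFD mice. It rests on only 17 to 54 counts per mouse, and its 95% confidence interval of -0.67 to 0.10 on the log2 scale allows a sizeable fall as well as no change. The stellate cell and fibroblast markers, a list whose cells express both genes, had summed levels of 3116 to 3909 CPM in BLT1i mice and 3438 to 3928 CPM in CDAA-HFD mice. With their mean log2 CPM as a covariate, the log2 fold change was -0.02 for Igfbp5 and -0.21 for Igfbp6. Across the 20 mice, deviations from the group mean gave r = 0.54 for Igfbp5 and 0.39 for Igfbp6 (permutation tests, adjusted p = 0.151 and 0.317). What part these cells have in the group differences was not tested.

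**Figure D2:**
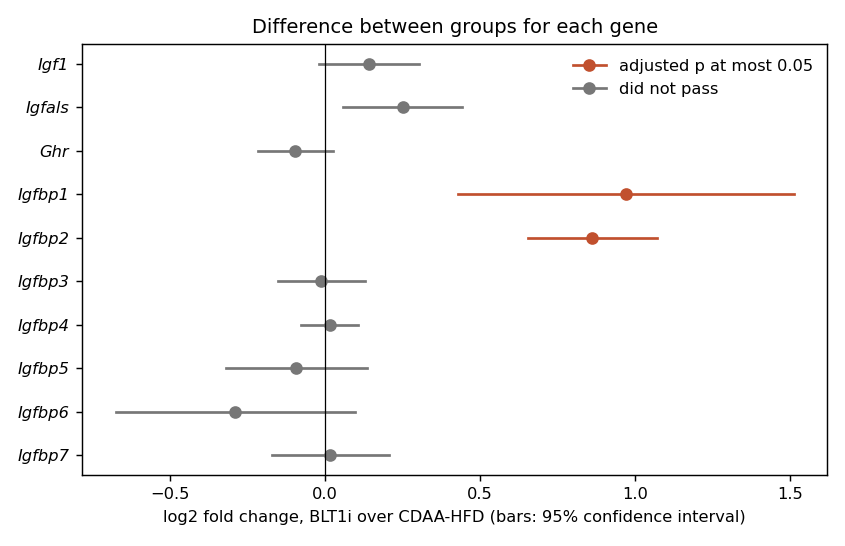
Log2 fold change of each gene, BLT1i over CDAA-HFD, with its 95% confidence interval from the edgeR test. Igfbp1 and Igfbp2 (red) lie at 0.97 and 0.86 with intervals clear of 0, and the widest interval is that of Igfbp1.

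Compared per gene length, Igfbp2, Igfbp4 and Igfbp7 stood above Igf1 in both groups, and Igfbp3, Igfbp5 and Igfbp6 stood below it. These are levels of RNA, not of protein. On the authors' deposited scale (FPKM, rounded to whole numbers), Igfbp2 came first in BLT1i mice at 687 ± 79.5, followed by Igfbp4 at 392 ± 19.4, Igfbp7 at 266 ± 35.7, Igfbp1 at 215 ± 63.4, Igf1 at 149 ± 13.5 and Ghr at 86.1 ± 4.31 FPKM (SD, n = 10). In CDAA-HFD mice Igfbp4 came first at 392 ± 24.8, then Igfbp2 at 381 ± 78.6, Igfbp7 at 265 ± 45.8, Igf1 at 137 ± 23.8, Igfbp1 at 110 ± 46.2 and Ghr at 91.6 ± 10.8 FPKM. In both groups Igfals, Igfbp3, Igfbp5 and Igfbp6 followed in that order, Igfals with 18.1 ± 2.81 FPKM in BLT1i mice and 15.3 ± 2.58 FPKM in CDAA-HFD mice. Both changes in the order came from the pair that rose.

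Igfbp2 exceeded Igfbp4 in 10 of 10 BLT1i mice and in 4 of 10 CDAA-HFD mice, where the neighbours did not differ beyond their spread. Igfbp1 exceeded Igf1 in 10 of 10 BLT1i mice and in 3 of 10 CDAA-HFD mice. Igfbp7 and Igfbp1 overlapped in BLT1i mice, with Igfbp7 above in 8 of 10, and so did Igfals and Igfbp3 in both groups. Summed over the 7 binding protein genes, the level was 1376 to 1697 FPKM in BLT1i mice and 980 to 1340 FPKM in CDAA-HFD mice. This difference restates those of Igfbp1 and Igfbp2. Igfbp1 and Igfbp2 gave 53.1% to 62.6% of that sum in BLT1i mice and 31.9% to 47.7% in CDAA-HFD mice. The sum of the remaining 5, Igfbp3 to Igfbp7, was 673 ± 41.7 FPKM with BLT1i and 673 ± 42.6 FPKM without (SD, n = 10 each). The ratio of the 7 summed binding protein genes to Igf1 was 9.11 to 12.6 in BLT1i mice and 5.21 to 10.8 in CDAA-HFD mice.

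**Figure D3:**
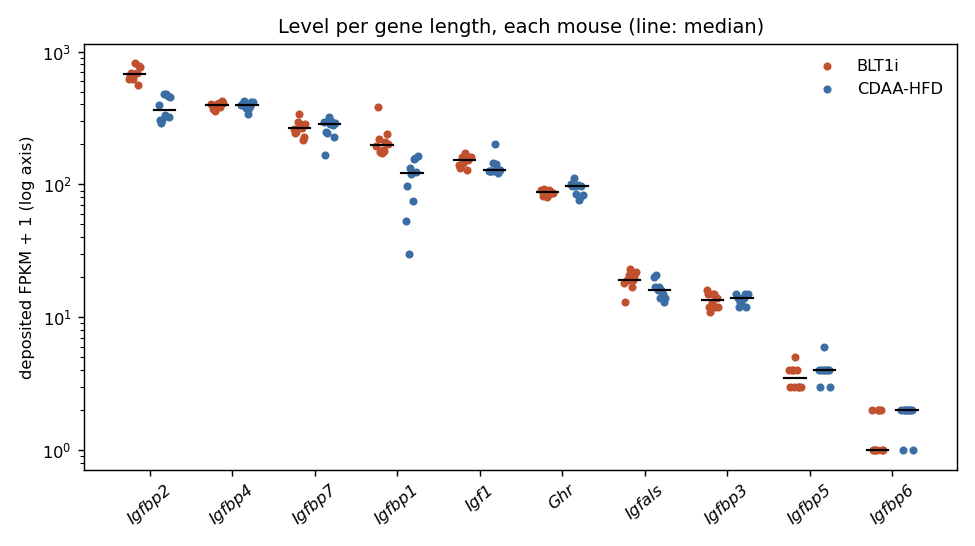
Deposited FPKM plus 1 on a log axis for each mouse, genes ordered by their mean in BLT1i mice, BLT1i (red) left of CDAA-HFD (blue), with the median as a line. Igfbp2 stands above Igfbp4 in all BLT1i mice, whereas these genes overlap in CDAA-HFD mice, and Igfals, Igfbp3, Igfbp5 and Igfbp6 lie well below the rest.

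Within a mouse, ratios do not depend on how libraries are scaled. Those given here reuse the Igfbp1 and Igfbp2 values above. The log2 ratio of Igfbp1 to its neighbour Igfbp3, in CPM, was 2.97 to 4.12 in BLT1i mice and 0.83 to 2.88 in CDAA-HFD mice. For Igfbp2 and its neighbour Igfbp5 it was 5.19 to 5.91 in BLT1i mice and 4.10 to 5.19 in CDAA-HFD mice, so that the ranges met at 5.19. Igfbp1 and Igfbp2 kept no fixed proportion to each other, since their log2 ratio ranged from 0.56 to 1.93 in BLT1i mice and from 0.98 to 3.06 in CDAA-HFD mice.

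Across mice of the same treatment, Igfbp2 ran against Ghr. Deviations of log2 CPM from the group mean gave r = -0.77 and rho = -0.77 over 20 mice (permutation tests within groups, adjusted p = 0.0311 and 0.0284 over the 45 pairs of the 10 genes), and r = -0.71 without the 2 mice farthest in Ghr. Over the 20 mice no other of the 45 pairs passed. Within the CDAA-HFD mice alone r was -0.93 (adjusted p = 0.0153; rho = -0.83, adjusted p = 0.221; r = -0.91 without the 2 farthest). Within the BLT1i mice it was -0.27 (adjusted p = 0.914), where Ghr spanned a narrower range. That the groups differ in this relation was not tested. The adjusted p rose above the threshold, up to 0.146, when any 1 of 9 mice was left out, while r stayed between -0.84 and -0.73.

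Igfbp1 and Igfbp2 themselves were only loosely related, at r = 0.47 over the 20 deviations (rho = 0.45; permutation tests, adjusted p = 0.325 and 0.472). Igfals tended to be low where Igfbp1 was high (r = -0.62, adjusted p = 0.0794; permutation test), but r was -0.25 without the 2 mice farthest in Igfals, so this rests on them; it passed without CDAA-HFD mouse 36 or BLT1i mouse 73. Igf1 and Igfals, the growth hormone targets, went together in BLT1i mice (r = 0.88, adjusted p = 0.0275; rho = 0.82, adjusted p = 0.249; permutation tests) and still did at r = 0.82 without the 2 mice farthest in Igf1. In CDAA-HFD mice their r was -0.45 (adjusted p = 0.690), and pooled as deviations it was 0.20 (adjusted p = 0.946). The difference between the groups was not tested here either.

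Igfbp1 went with the hepatocyte markers over the 20 mice, but not past the threshold once Tat was left out. Against the mean log2 CPM of 10 such genes the deviations gave r = 0.67 (rho = 0.79; permutation tests, adjusted p = 0.0114 and 0.0012 over 30 pairs of a gene and a score) and r = 0.67 without the 2 mice farthest in the score. Within BLT1i mice r was 0.82 (adjusted p = 0.0747) and rho was 0.95 (adjusted p = 0.0060), so the rank measure alone passed, and within CDAA-HFD mice r was 0.71 (adjusted p = 0.255). Against the stellate cell and fibroblast score, Igfbp1 gave r = -0.73 (adjusted p = 0.106) and rho = -0.88 (adjusted p = 0.0218) within BLT1i mice, and r = -0.33 over the 20 mice (adjusted p = 0.317). The hepatocyte list holds Tat, the tyrosine aminotransferase that glucocorticoids induce, and without Tat r over the 20 mice was 0.47 (adjusted p = 0.110), so that call rests on this gene. The hepatocyte score itself was 11.4 to 11.7 in BLT1i mice and 11.4 to 11.6 in CDAA-HFD mice, and none of its 10 genes passed between groups. Over the 20 mice no other of the 30 pairs passed. Against the immediate early score, r was 0.50 for Igfbp1, 0.55 for Igfbp2 and -0.66 for Ghr (adjusted p = 0.207, 0.151 and 0.0540), with rho of 0.41, 0.54 and -0.60. The Ghr value passed with library totals and without mouse 37, 38 or 39 of the CDAA-HFD group.

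**Figure D4:**
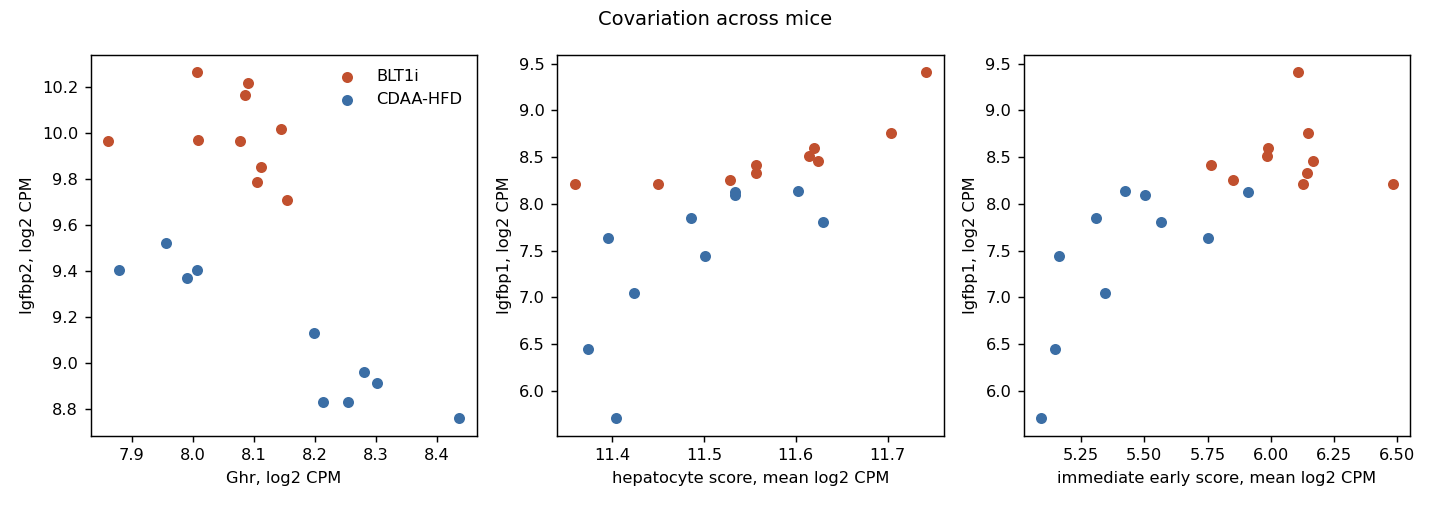
Each point is a mouse, BLT1i in red and CDAA-HFD in blue: Igfbp2 against Ghr (left), Igfbp1 against the hepatocyte score (middle) and Igfbp1 against the immediate early score (right), all in log2 CPM. Igfbp2 falls as Ghr increases among CDAA-HFD mice (r = -0.93), and the immediate early score nearly separates the groups along the right-hand axis. The hepatocyte score includes Tat, without which its relation to Igfbp1 did not pass.

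The genes whose deviations were most like those of each member, among 13400 genes with at least 1 CPM, are given as a description over 20 mice that share libraries and scaling. For Igfbp1 they were Cyp39a1 (r = 0.85), an oxysterol hydroxylase, Srrm4 (0.82) and Tat (0.81). For Igfbp2 they were Etfa (0.87), an electron transfer flavoprotein subunit, Rps27 (0.85), a ribosomal protein, and Syf2 (0.85). For Igf1 they were Tut4 (0.84), Proz (0.83), the plasma protein Z, and Pex3 (0.81). Ghr was nearest to Isoc1 (0.85), Prpf8 (0.84) and Med19 (0.83), and Igfals to 6430571L13Rik (0.81), Asb2 (0.76) and Ggt6 (0.72). Igfbp4 was nearest to Man2a1 (0.91), Tfec (0.88) and Abhd15 (0.88), and Igfbp3 to Ngrn (0.82), Gadd45g (0.79) and Gtpbp10 (0.75). Igfbp5 was nearest to Ogn (0.83), a matrix proteoglycan, Ssx2ip (0.74) and Cdkn2c (0.73), and Igfbp6 to Pkhd1l1 (0.79), 2010315B03Rik (0.75) and Haus5 (0.72). Igfbp7 was nearest to the tetraspanin Cd63 (0.89), Homer3 (0.87) and the matrix protein Dpt (0.87). No member was among the nearest genes of another.

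In the 7 lists of pathway genes around the axis 19 rose and 1 fell, and 12 of those that rose were immediate early genes. Of all 13993 tested genes, 3.65% passed as higher and 1.98% as lower. A single call in a list of 6 to 13 tested genes therefore says little about that list. Of the 10 genes for Igf2, receptors and adaptors, 1 rose and none fell, with a median log2 fold change of 0.00. The riser was Irs2, the insulin receptor substrate that FOXO1 induces, at 160 ± 23.4 CPM in BLT1i mice and 120 ± 19.1 CPM in CDAA-HFD mice (SD, n = 10 each; edgeR adjusted p = 0.0120). The receptors did not pass, with Igf1r at 57.7 ± 6.95 and 59.1 ± 6.47 CPM and Igf2r at 232 ± 7.38 and 231 ± 10.99 CPM in BLT1i and CDAA-HFD mice.

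Of 13 genes of growth hormone receptor signalling and its feedback, 1 rose and none fell (median -0.01). It was Socs2, the feedback inhibitor that STAT5B induces, at 56.9 ± 19.7 CPM with BLT1i and 36.1 ± 6.59 CPM without (edgeR adjusted p = 0.0391). Its call was lost when any 1 of 10 mice was left out (adjusted p up to 0.0776). Cish, another such inhibitor, had 47.6 ± 25.9 and 31.9 ± 11.6 CPM in BLT1i and CDAA-HFD mice and did not pass (adjusted p = 0.342). Stat5b had 91.2 ± 4.73 CPM with BLT1i and 90.3 ± 5.70 CPM without. Of 8 tested genes of the proteases that cut binding proteins and of their inhibitors, 1 rose (median -0.10). This was Adamts1, a matrix protease of vessels, at 46.2 ± 5.24 CPM with BLT1i and 39.9 ± 3.29 CPM without (adjusted p = 0.0334). That call was lost without any 1 of 7 mice (adjusted p up to 0.0653) with library totals alone and with the stellate cell and fibroblast score as a covariate. In the same mice 3 of 10 sinusoidal endothelial markers also rose, Kdr, Clec4g and Oit3, and none fell (median 0.136). The others did not pass. Among them Stab1 leaned the other way (log2 fold change -0.141, edgeR adjusted p = 0.107), and Pecam1 differed little (0.045). What part endothelial cells have in the Adamts1 difference was not tested.

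Genes that depend on the male pattern of growth hormone release did not move together. Of 13 tested, 1 rose, 1 fell and 11 did not pass (median -0.09). Cyp4a12b, a fatty acid hydroxylase, had 63.0 ± 8.26 CPM in BLT1i mice and 25.0 ± 10.2 CPM in CDAA-HFD mice (SD, n = 10 each; edgeR adjusted p = 3.75e-05). Mup20, the urinary protein darcin, fell to 3992 ± 632 CPM in BLT1i mice, against 5345 ± 1129 CPM in CDAA-HFD mice (adjusted p = 0.0241). Of 6 tested genes with a female bias 1 rose, the peroxisomal transporter Abcd2, at 38.2 ± 5.48 CPM with BLT1i and 28.2 ± 3.62 CPM without (adjusted p = 0.00196). The median log2 fold change of these 6 was 0.84, and the 5 that did not pass had values from 0.29 to 1.78. The Cyp4a12 and Mup genes have near-identical copies, so their single values are uncertain.

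Of 9 genes for FOXO1, FOXO3 and the genes FOXO1 induces in liver, 2 rose and none fell, with a median log2 fold change of 0.21. Pdk4, the kinase that shuts off pyruvate dehydrogenase, had 52.0 ± 12.4 CPM in BLT1i mice and 29.9 ± 7.64 CPM in CDAA-HFD mice (SD, n = 10 each; edgeR adjusted p = 0.00312). Pck1, a gluconeogenic enzyme, had 1918 ± 350 CPM with BLT1i and 1255 ± 410 CPM without (adjusted p = 0.0441). The Pck1 call was lost without any 1 of 14 mice (adjusted p up to 0.0880), and also with the stellate cell and fibroblast score as a covariate. The other 7 did not pass, Foxo1 and G6pc among them. Of the 18 immediate early genes 12 rose and none fell (median 0.58), led by Jun, Egr1, Zfp36 and Ier3, with folds of 1.64, 2.82, 1.68 and 1.45. Outside the immediate early list, only Cyp4a12b of the called pathway genes kept its call with the immediate early score as a covariate. The pathway lists were drawn up with earlier results of the same mice known, so their counts are a description.

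**Figure D5:**
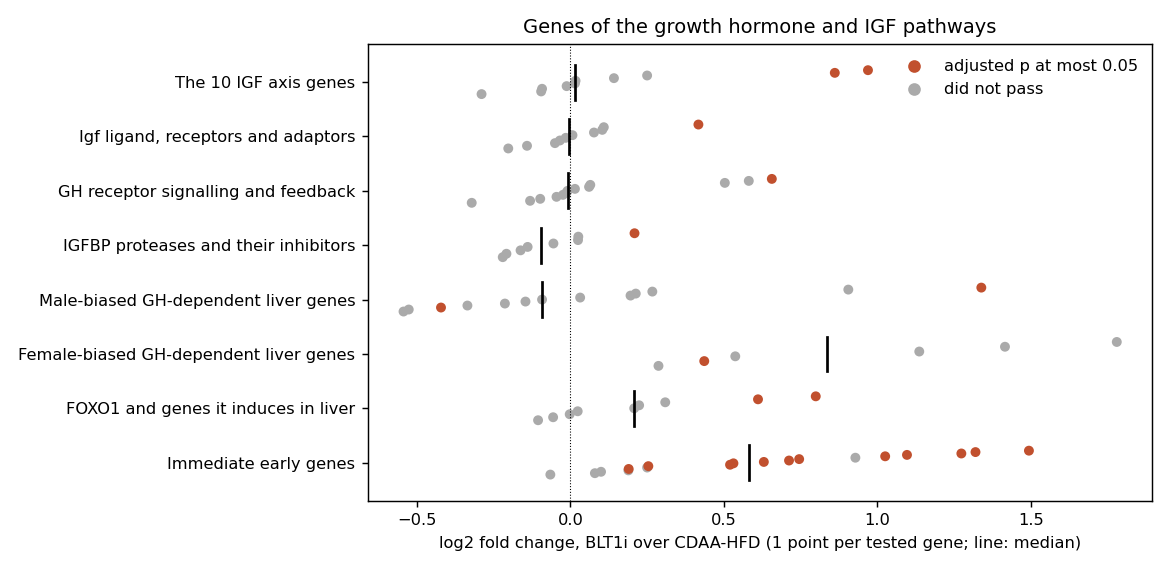
Log2 fold changes, BLT1i over CDAA-HFD, of every tested gene in the 10 IGF axis genes and the 7 pathway lists, with genes past the threshold in red and the list median as a black line. Medians lie within 0.10 of 0 for the receptor, growth hormone signalling, protease and male-biased lists, at 0.21 for the FOXO1 list, 0.58 for the immediate early genes and 0.84 for the 6 female-biased genes, of which 1 passed.

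Facts of the whole series that touch these values are brief. Total counts per mouse were 18467060 to 26078285 in BLT1i mice and 20994073 to 27456678 in CDAA-HFD mice, and the 10 genes other than Igfbp6 had at least 370 counts in every mouse. The hepatocyte markers, whose sum was 67430 to 81910 CPM in BLT1i mice and 65360 to 78640 CPM in CDAA-HFD mice, stand for a liver sample, as labelled. Of the markers, 1 of 14 of stellate cells and fibroblasts rose (Tagln), and none of 10 of macrophages, 8 of cholangiocytes or 7 tested of neutrophils passed. None of the marker genes was at 0 in all mice. The mice are separate animals, and mouse numbers run in separate blocks for the groups, so that an effect of order cannot be told apart from treatment.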

How the data were processed

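Each of the 20 mice was sequenced on 2 lanes, which gives 40 samples in the labels; the tables hold 1 column per mouse, and the mouse was the replicate. Per the labels' protocols, ribosomal RNA was removed and stranded total RNA libraries were read in pairs, although polyA RNA is the molecule named. The build was GRCm39 per the submitters' processing notes; for aligner, counter and lane merging, none is given in the sources used here. Files deposited by the authors hold raw counts per gene, used for every main test, and FPKM rounded to whole numbers, a score in which 43.3% of values are 0, used for levels between genes and for alternatives. A gene name table named 21457 of 21500 identifiers; the unnamed ones held 0.0078% of counts. No mouse was a copy of another of its group: the chi-square over its degrees of freedom was at least 6.17 in the 90 within-group pairs.

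Counts were filtered with filterByExpr, scaled by TMM and tested with the robust quasi-likelihood F-test of edgeR 4.0.16 in R 4.3.3, without covariates, with Benjamini-Hochberg adjustment. The SE is the log2 fold change divided by the square root of F. Correlations use log2 CPM (prior count 2) with group means removed, 100000 permutations within groups, two-sided, and 20000 where a mouse was left out. The fit and the correlation test were tested on simulated data. Alternatives were other scalings and filters, DESeq2 1.42.0, limma 3.58.1 (voom with weights, and trend on log2 FPKM plus 1 or 0.1), other thresholds, each mouse left out, and scores as covariates.

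The members and lists were chosen with earlier results of these data known. The text names all members, from each list up to 4 called genes with the lowest p, the genes Igf1r, Igf2r, Stat5b, Socs2 and Cish, and the 3 nearest genes of each member. The endothelial, stellate cell and fibroblast markers and the unpassed Foxo1 and G6pc were named after their values were seen.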

Additional observations from a re-analysis of the deposited data

Results flagged for a closer look

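In 4 of the 20 groups of 10 values (10 genes in each treatment) a single mouse stood apart, its gap to the nearest mouse being a larger part of the group's range than Dixon's 95% limit of 0.466 for 10 values. Among normally distributed values chance marks about 1 in 20 groups, and whether CPM are so distributed was not tested. For Igfbp1 the mouse that stood apart was BLT1i mouse 72, at 681 CPM with the next mouse at 432 CPM. For Igf1 it was CDAA-HFD mouse 36, at 683 CPM with the next at 492.5 CPM. For Ghr it was BLT1i mouse 75, the lowest of its group at 232 CPM with the next at 257 CPM. For Igfbp5 it was CDAA-HFD mouse 35, at 33.8 CPM with the next at 26.5 CPM. The gaps of Ghr and Igfbp5 were close to the limit, at 0.472 and 0.467 of the range. Leaving out mouse 72 ends the call of Igfbp1, as does leaving out BLT1i mouse 79, which does not stand apart, and leaving out mouse 36 makes the difference of Igf1 pass; why these mice differ was not tested.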

How the results depend on the processing

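Both member calls held under RLE, upper-quartile and total-count scaling, both other filters, DESeq2, limma-voom and the 3 fits to FPKM, and no member was called lower under any alternative. The count of 2 members was 0 with the immediate early score as a covariate, 1 with the stellate cell and fibroblast score (Igfbp1 at 0.85, adjusted p = 0.0689), 1 at a threshold of 0.01, and 1 to 3 with a mouse left out. Over all tested genes the immediate early score left 74 called higher and 17 lower, against 511 and 277 without it. Called pathway genes numbered 19 higher and 1 lower. With the immediate early score they numbered 1 and 0, but 12 of the 19 belong to that score themselves. The loss of those 12 is built into this setting and says nothing about their robustness. Calls outside the score were lost too, except that of Cyp4a12b. Among those lost were Irs2 (edgeR adjusted p = 0.9945), Pdk4 (0.4151), Abcd2 (0.5534) and the fall of Mup20. The lower count was 2 with upper-quartile scaling, 3 with library totals, 0 with limma-voom, 2 at a threshold of 0.1, 0 at 0.01 and 1 to 2 with a mouse left out. The higher count was 16 to 20 with a mouse left out, 13 at a threshold of 0.01, 23 at 0.1, 23 with DESeq2 and 17 to 21 under the other alternatives. Beside calls lost with the immediate early score, Socs2 lost its call on FPKM and without a filter, Mup20 with limma-voom and Pck1 without a filter. Member pairs passing numbered 0 to 3 with a mouse left out, against 1. Pairs with scores numbered 1 to 2 then, 2 with library totals, and 0 without Tat, an alternative chosen after seeing the data. The cause was not tested. No paired analysis was possible because the groups share no replicate numbers. Counting error limits Igfbp6.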
